A study of Mus musculus with 31 samples.

Results

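Collagens are proteins whose chains wind into a triple helix, and 42 genes of this family were measured among 18193 genes in mouse skin. They were chosen by name alone, as every gene whose only symbol in the probe table has the form Col, a number, a, a number, and no measured value entered the choice. For a gene with several probe sets, the one with the highest mean over all arrays stood for the gene. Of the 42 genes, 11 encode fibrillar collagens, 10 encode collagens of the basement membrane zone (the 6 chains of type IV and types VII, XV, XVII and XVIII) and 21 encode other types.

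RNA from skin of C3H/HeJ mice was hybridised to 31 Affymetrix arrays. The mice had established AA, read here as alopecia areata, an autoimmune loss of hair, and were treated topically. The arms are named PBS (the vehicle), jak1i and jak3i, compounds given only by these codes and described by the series as JAK inhibitors, and no dose or age is given in the sources used here. There were 3 arrays for every arm at 0, 6 and 12 weeks, and 2 arrays each for jak1i and jak3i at 24 weeks, while no PBS arrays at 24 weeks were analysed here. The time labels carry no unit and were read as weeks from the W in the sample titles. The replicates are called biological, but no source says if one mouse gave samples at several times, so all p-values measure the spread between these samples.

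Fibrillar collagens such as types I, III and V assemble into the fibres that give the dermis its strength, and are made mainly by fibroblasts. Type IV collagen forms the sheet-like network of basement membranes, type VII anchors the epidermal basement membrane to the dermis, and type XVII spans the membrane of basal keratinocytes within hemidesmosomes. Most other collagens are network formers, membrane-spanning chains, or FACITs, a class that decorates the surface of fibrils.

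Col8a2 and Col17a1 were the members with the most called rises, and Col1a2 and Col3a1 are fibrillar genes of the dermis whose differences did not pass the test. For these 4 genes the 250 bases before the start of the gene, from RefSeq (GRCm38.p6), are printed 5′ to 3′ on the gene's strand. Col8a2 starts at chr4:126286794 on the plus strand and its window is chr4:126286544-126286793. Col17a1 lies on the minus strand with the window chr19:47692043-47692292. The windows of Col1a2, chr6:4505368-4505617, and Col3a1, chr1:45311288-45311537, are on the plus strand. Capitals mark the letters TATAAA, known as the TATA box motif, the letters CCAAT, and the letters GGGCGG, known as the GC box motif, on either strand, so that a match on the other strand reads as its reverse complement.
Col8a2: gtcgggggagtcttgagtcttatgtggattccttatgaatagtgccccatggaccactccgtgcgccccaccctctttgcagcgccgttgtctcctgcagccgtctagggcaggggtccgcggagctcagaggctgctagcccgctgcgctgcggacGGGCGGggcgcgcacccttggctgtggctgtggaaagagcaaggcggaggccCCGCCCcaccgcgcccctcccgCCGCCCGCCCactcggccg
Col17a1: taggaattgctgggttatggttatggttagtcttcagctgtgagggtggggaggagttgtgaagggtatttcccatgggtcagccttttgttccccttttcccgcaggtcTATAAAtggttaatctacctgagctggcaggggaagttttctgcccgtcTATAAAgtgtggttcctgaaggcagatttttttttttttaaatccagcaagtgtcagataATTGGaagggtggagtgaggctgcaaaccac
Col1a2: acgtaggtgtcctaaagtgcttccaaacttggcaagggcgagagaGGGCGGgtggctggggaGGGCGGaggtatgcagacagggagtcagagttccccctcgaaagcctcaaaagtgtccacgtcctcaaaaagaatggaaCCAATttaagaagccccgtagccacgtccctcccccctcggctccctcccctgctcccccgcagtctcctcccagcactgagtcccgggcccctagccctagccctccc
Col3a1: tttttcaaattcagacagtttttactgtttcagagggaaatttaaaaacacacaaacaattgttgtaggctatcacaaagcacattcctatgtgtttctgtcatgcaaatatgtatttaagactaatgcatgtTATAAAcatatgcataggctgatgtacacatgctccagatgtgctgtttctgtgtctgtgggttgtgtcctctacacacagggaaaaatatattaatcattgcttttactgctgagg
The Col8a2 window held 4 matches to GGGCGG, which began at positions −93, −41, −19 and −15 before the start, the last 2 overlapping each other, and none to TATAAA or CCAAT. The Col17a1 window held TATAAA at −140 and −91 and CCAAT at −31. The Col1a2 window held GGGCGG at −205 and −188 and CCAAT at −109, and the Col3a1 window held TATAAA at −117.

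The promoter table held 33 of the 42 genes, with 36 windows. GGGCGG was found in 58.3% of these windows (21 windows of 20 genes) and in 32.7% of all 32851 windows of the same length in the table. TATAAA was found in 13.9% of the collagen windows and 12.4% of all windows, and CCAAT in 36.1% and 33.8%. Of motifs bound by factors downstream of Janus kinases, TTCNNNGAA was found in 1 collagen window, that of Col6a5 (2.78%, against 7.02% of all windows), and GAAANNGAAA in 0 (against 2.98%). Both strands were searched, and the matches to different motifs were counted separately. These are matches of letters and no binding was measured.

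The labelled tissue was checked against defining markers. The basal keratinocyte genes Krt5, Krt14 and Trp63 lay between 11.54 and 14.05 on the log2 scale on the 31 arrays, and the fibroblast genes Pdgfra, Dcn and Lum between 8.14 and 13.91, against a median of 6.177 over all values. Skeletal muscle genes set PBS at 12 weeks apart: the mean of 10 muscle genes, each relative to its own mean over 31 arrays, was −5.95 to −2.66 on the log2 scale there and −0.64 to 1.57 on every other array. The mean of 10 hair shaft genes was 1.04 to 2.78 in PBS at 12 weeks, −3.01 to −1.16 in jak1i and −3.94 to −1.27 in jak3i, without overlap at that time. At 6 weeks the arms overlapped, at −2.80 to 3.17 in jak1i, −3.23 to 3.69 in jak3i and 0.48 to 2.32 in PBS. At 24 weeks the mean was −3.44 to 0.78 in jak1i and −2.89 to 0.25 in jak3i. In PBS at 6 weeks replicate 2, 10 of the 42 collagen genes had their lowest value of all arrays, and 12 had their highest in jak3i at 12 weeks replicate 3. In such bulk samples, fewer cells of a type and less RNA per cell cannot be told apart.

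A gene was called dim when at most 1 of the 31 arrays lay over the median of all values, and by that measure 30 of the 42 genes were not dim. Of these, Col13a1 lay over that median on only 3 arrays and Col9a3 on 6, so both are near the dim genes. The 12 dim genes were Col2a1, Col11a2 and Col24a1 of the fibrillar class, Col4a3 of the basement membrane class, and Col6a4, Col6a5, Col9a1, Col9a2, Col10a1, Col19a1, Col22a1 and Col26a1 of the others. All 42 stayed in the tests. Within a group, the arrays scattered most for Col11a1 (pooled SD 1.28), Col14a1 (0.74), Col1a1 (0.72) and Col8a1 (0.64).

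Between PBS and the inhibitors the family as a whole did not move far. Every comparison was made with limma in 1 model of all 31 arrays, and a gene was called at a Benjamini-Hochberg adjusted p under 0.05 over all 18193 genes. Over the 20 comparisons 9 of the 42 genes were called at least once, beside 34.6% of all genes: Col8a2 in 8 comparisons, Col17a1 in 4, Col4a6, Col13a1 and Col15a1 in 2 each, and Col6a4, Col10a1, Col12a1 and Col27a1 in 1 each. The plot of log2 differences by gene and comparison shows these calls.

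**Figure D1:**
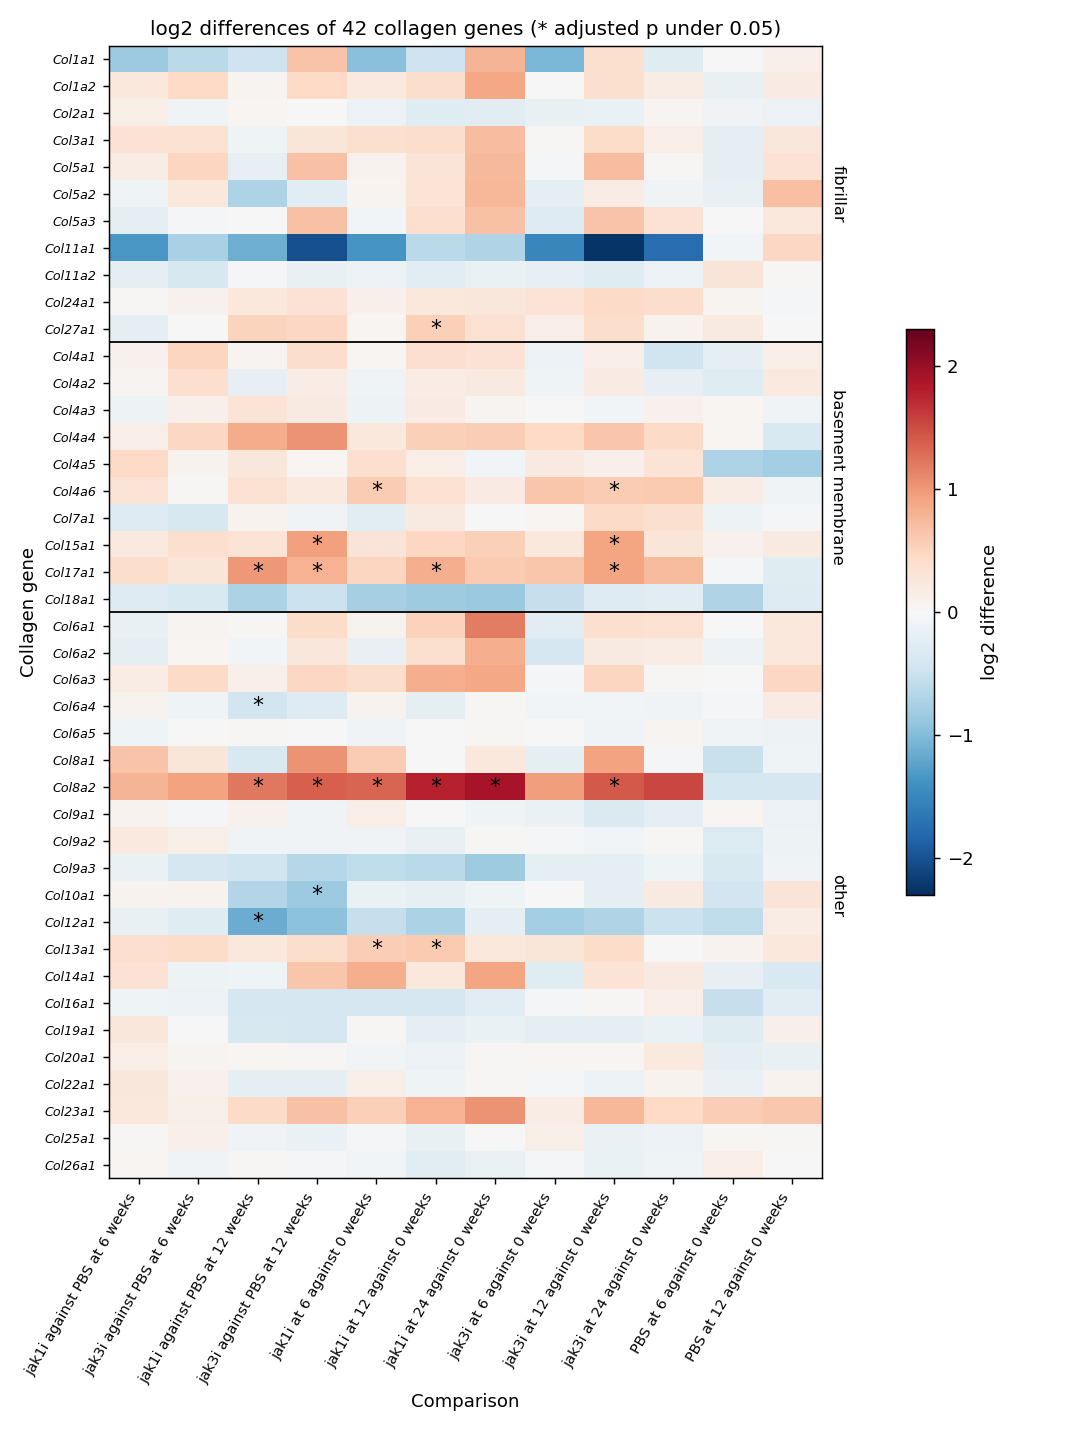
Log2 difference of each of the 42 collagen genes (rows, by class) in 12 comparisons (columns), with red for higher and blue for lower in the group named first, and an asterisk for an adjusted p under 0.05. The row of Col8a2 carries asterisks in 6 of the columns, and the fibrillar rows carry 1, for Col27a1 in jak1i at 12 against 0 weeks.

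At 6 weeks, 0 of 42 collagen genes were called in jak1i against PBS, where 1.36% of all genes were, and 0 in jak3i against PBS, where 1.94% were. At an unadjusted p under 0.05 the counts were 2 and 3, beside 17.4% and 16.9% of all genes. The jak3i count was 1 without jak3i replicate 3 and 1 without PBS replicate 1. No share of all genes is at hand for this or any later fit that leaves out an array or changes the control. At 12 weeks 4 were called in jak1i against PBS (13.4% of all genes were), of which Col8a2 and Col17a1 were higher and Col6a4 and Col12a1 lower. The median log2 difference was −0.03 for the 11 fibrillar genes, 0.29 for the 10 basement membrane genes and −0.08 for the 21 others, beside −0.03 for all genes tested. The groups did not overlap for 10 of the 42 genes, beside 36.2% of all genes. One at a time, leaving out jak1i replicates 1, 2 and 3 gave 2, 3 and 1 called members, and leaving out PBS replicates 1, 2 and 3 gave 2, 5 and 1. With PBS at 6 weeks as the control, an alternative chosen after seeing the data, 0 were called.

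In jak3i against PBS at 12 weeks 4 members were called, where 17.3% of all genes were: Col8a2, Col15a1 and Col17a1 were higher and Col10a1 lower. The class medians were 0.34 for fibrillar, 0.22 for basement membrane and −0.05 for other collagens, beside −0.04 for all genes, and 14 of 42 members did not overlap between the groups, beside 38.3% of all genes. In both inhibitors the share of collagen genes called lay below that of all genes. Here the array medians over the 18193 genes were on average 0.139 higher in jak3i than in PBS on the log2 scale. The calls depended on this shift, and centring used the same medians. Centred on the array medians, 7 members were called, with Col8a2 and Col15a1 higher and Col6a4, Col9a3, Col10a1, Col12a1 and Col19a1 lower, and all genes went from 1823 higher and 1325 lower to 1252 higher and 3016 lower. The array medians also differed by 0.165 in jak3i at 12 against 0 weeks, 0.121 in jak1i and 0.150 in jak3i at 24 against 0 weeks, −0.113 in jak1i against jak3i at 12 weeks, and by 0.101 and −0.103 in the changes of jak3i against PBS and of jak1i against jak3i. Without jak3i replicates 1, 2 and 3 in turn the count was 1, 2 and 2, and without PBS replicates 1, 2 and 3 it was 2, 10 and 0. The share of all genes called in these fits is not at hand, so the counts cannot be set beside it. With PBS at 6 weeks as the control, Col8a2 and Col15a1 were called.

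The hair shaft and muscle genes moved with both comparisons at 12 weeks: 2 and 5 of 10 hair shaft genes were lower in jak1i and jak3i, and all 10 muscle genes were higher in each. With the hair shaft mean as a covariate, 0 members were called in either, and with the muscle mean as a covariate likewise 0. No share of all genes is at hand for these fits. At 12 weeks the hair shaft mean did not overlap between PBS and either inhibitor, so that this covariate and the treatment are hard to tell apart there. The muscle mean of the 3 PBS arrays at 12 weeks did not overlap that of any other array, so that the muscle covariate and this group can hardly be told apart.

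Within the arms over time, jak1i had 3 members higher and 0 lower at 6 against 0 weeks (12.4% of all genes called), 4 higher and 0 lower at 12 weeks (16.3%) and 1 higher at 24 weeks (1.19%). In jak3i the counts were 0 at 6 weeks (3.15%), 4 higher and 0 lower at 12 weeks (10.3%) and 0 at 24 weeks (0.110%). In PBS 0 members were called at 6 against 0 weeks (0.00550%), at 12 against 0 weeks (2.28%) or at 12 against 6 weeks (0.401%). At an unadjusted p under 0.05 there were 5 members in jak3i at 6 weeks, 4 at 24 weeks, and 5, 1 and 5 in the PBS comparisons, beside 22.2%, 17.2%, 9.82%, 16.3% and 8.03% of all genes in the same order. All 8 calls of the inhibitor arms at 12 weeks were rises, where 9.76% of all genes rose in jak1i and 7.41% in jak3i. The median log2 difference at 12 against 0 weeks was 0.30 for fibrillar, 0.28 for basement membrane and −0.10 for other genes in jak1i, and 0.37, 0.31 and −0.06 in jak3i, beside −0.035 and −0.0015 for all genes.

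Several of these counts changed when single arrays were left out, with no share of all genes at hand for those fits. The jak1i count at 6 weeks was 1, 2 and 2 without jak1i at 0 weeks replicates 1, 2 and 3 (falls, not rises, without replicate 3), and 0, 3 and 1 without jak1i at 6 weeks replicates 1, 2 and 3. At 12 weeks it was 2, 3 and 4 without the 0-week arrays in the same order, 3 of the 4 being falls without replicate 3, and 1, 3 and 1 without the 12-week arrays. At 24 weeks it was 0 without any one of the 0-week arrays or without jak1i at 24 weeks replicate 2. In jak3i the 12-week count was 1, 0 and 3 without the 0-week arrays and 0, 0 and 2 without the 12-week arrays. The jak3i count was 2 at 6 weeks without jak3i at 6 weeks replicate 1, and 1 at 24 weeks without jak3i at 24 weeks replicate 1. With array medians centred, jak3i at 12 weeks had Col8a2 and Col15a1 higher and Col11a2 and Col26a1 lower, as all genes went from 1348 higher and 519 lower to 720 and 2320. In the same setting jak1i at 12 weeks had 3 members higher, with all genes going from 1775 and 1183 to 1360 and 1312, and 0 were called at 24 weeks.

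Col8a2 was the member called most often, and it rose under both compounds. It encodes a chain of type VIII collagen, a short-chain collagen that forms hexagonal networks and is best known from the cornea and vessel walls, and it lies at chr4:126286794-126314330 (GRCm38.p6) with 1 probe set. In PBS its log2 values were 6.77, 7.34 and 7.40 at 0 weeks, 7.47, 6.18 and 6.63 at 6 weeks and 7.10, 6.71 and 6.53 at 12 weeks. In jak1i they were 6.09, 6.62 and 5.93 at 0 weeks, 8.05, 7.27 and 7.32 at 6, 8.06, 8.12 and 7.79 at 12 and 7.78 and 8.42 at 24 weeks. All treated jak1i arrays lay above all jak1i arrays at 0 weeks. In jak3i the values were 6.96, 6.10 and 7.14 at 0 weeks, 7.87, 8.04 and 7.15 at 6, 8.35, 7.64 and 8.44 at 12 and 7.63 and 8.92 at 24 weeks. These treated arrays, too, all lay above the 0-week arrays of their own arm.

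At 12 weeks Col8a2 was higher than in PBS by 1.22 (SE 0.37, adjusted p = 0.0318) on the log2 scale in jak1i and by 1.37 (SE 0.37, adjusted p = 0.0166) in jak3i, which are 2.32-fold and 2.58-fold, and all 6 inhibitor arrays lay above the 3 PBS arrays. The jak1i call was lost on leaving out, one at a time, jak1i at 12 weeks replicates 1, 2 and 3 and PBS at 12 weeks replicates 2 and 3 (1.09 to 1.32, adjusted p 0.0568 to 0.138), and the jak3i call on leaving out, one at a time, jak3i at 12 weeks replicates 1 and 3 and PBS at 12 weeks replicate 3 (1.22 to 1.27, adjusted p 0.0501 to 0.0743). At 6 weeks the differences from PBS, 0.79 (SE 0.37, adjusted p = 0.268) and 0.93 (SE 0.37, adjusted p = 0.189), did not pass the test. In the fit with the hair shaft mean the 12-week differences were 0.95 (adjusted p = 0.23) and 1.05 (adjusted p = 0.243). With PBS at 6 weeks as the control they were 1.23 (adjusted p = 0.118) and 1.38 (adjusted p = 0.0471).

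Within jak1i, Col8a2 rose from 0 weeks by 1.34 (SE 0.37, adjusted p = 0.0221) at 6, 1.78 (SE 0.37, adjusted p = 0.00452) at 12 and 1.89 (SE 0.41, adjusted p = 0.0368) at 24 weeks, and the 12-week rise was 3.44-fold. The 12-week call held without each of the 6 arrays in turn (1.64 to 1.99), with either covariate and with centred arrays. The 6-week call was lost on leaving out, one at a time, jak1i at 0 weeks replicates 1 and 3 and jak1i at 6 weeks replicate 1 (1.08 to 1.27, adjusted p 0.0721 to 0.128), and the 24-week call on leaving out, one at a time, jak1i at 0 weeks replicates 1, 2 and 3 and jak1i at 24 weeks replicate 2 (1.57 to 2.09, adjusted p 0.0576 to 0.725). Within jak3i the rise was 1.41 (SE 0.37, adjusted p = 0.0286) at 12 weeks, lost on leaving out, one at a time, jak3i at 0 weeks replicates 1 and 2 and jak3i at 12 weeks replicates 1, 2 and 3 (1.09 to 1.66, adjusted p 0.0548 to 0.143), while the differences of 0.95 (SE 0.37, adjusted p = 0.126) at 6 and 1.54 (SE 0.41, adjusted p = 0.12) at 24 weeks were not called. With the hair shaft mean as a covariate the jak3i value at 12 weeks was 1.08 (adjusted p = 0.635) and the jak1i value 1.52 (adjusted p = 0.0444). In PBS it was −0.39 (SE 0.37, adjusted p = 0.658) from 0 to 12 weeks.

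The arms also differed in how Col8a2 changed. From 0 to 12 weeks its change was larger in jak1i than in PBS by 2.17 (SE 0.52, adjusted p = 0.0185) and in jak3i than in PBS by 1.80 (SE 0.52, adjusted p = 0.0491). It was the 1 member called in each of these comparisons, where 6.85% and 4.55% of all genes were. With the mean of all probe sets the 1 member called for jak3i was Col4a6 (0.998, adjusted p = 0.039) and no longer Col8a2 (adjusted p = 0.0524). The jak1i difference lost its call on leaving out, one at a time, jak1i at 0 weeks replicate 3 and PBS at 12 weeks replicate 3 (2.03 to 2.05, adjusted p 0.0505 to 0.0606), and the jak3i difference on leaving out, one at a time, jak3i at 0 weeks replicates 1 and 2, jak3i at 12 weeks replicates 1 and 3, PBS at 0 weeks replicates 1, 2 and 3 and PBS at 12 weeks replicates 1, 2 and 3 (1.48 to 1.999, adjusted p 0.059 to 0.126). The member count of the jak1i comparison was 2 without jak1i at 0 weeks replicate 1 or 2 or PBS at 12 weeks replicate 2, and 0 where Col8a2 lost its call. That of the jak3i comparison was 0 without each of the arrays named for it, except PBS at 12 weeks replicate 2, where it was 1. The arms did not start level for Col8a2: at 0 weeks the jak1i arrays all lay below the PBS arrays, with a difference of −0.96 (SE 0.37, adjusted p = 0.983) and a 95% interval of −1.71 to −0.20, which was not called. With the hair shaft mean as a covariate, the differences in change were 1.88 (adjusted p = 0.0856) and 1.44 (adjusted p = 0.374).

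Markers of other cell types moved with the rise of Col8a2. The fat cell mean of 6 genes lay between −1.77 and −0.99 at 0 weeks and between 0.53 and 1.42 at 12 weeks in jak1i. In jak3i it lay between −1.31 and 0.04 and then between 0.28 and 1.96, and in PBS between −1.24 and −0.69 and then between −1.14 and 0.50. The Schwann cell mean of 3 genes lay between −1.09 and −0.40 and then between 0.10 and 0.58 in jak1i, between −0.75 and −0.11 and then between 0.21 and 0.98 in jak3i, and between −1.04 and −0.12 in PBS at 12 weeks. The endothelial mean of 8 genes lay between −0.83 and −0.62 and then between 0.11 and 0.71 in jak1i, and between −0.75 and 0.12 and then between 0.77 and 1.33 in jak3i. In PBS it lay between −0.80 and −0.43 and then between −0.49 and 0.10. The fibroblast mean of 8 genes lay between −0.77 and −0.48 and then between −0.04 and 0.29 in jak1i. In jak3i it lay between −0.40 and 0.28 and then between 0.42 and 0.76, and in PBS between −0.52 and −0.16 and then between −0.36 and 0.37. The basal keratinocyte mean of 6 genes lay between −0.31 and 0.21 and then between 0.23 and 0.33 in jak1i. In jak3i it lay between −0.41 and −0.15 and then between 0.10 and 0.26, and in PBS between −0.04 and −0.03 and then between −0.28 and 0.04. In jak1i 5 of 6 fat cell, 2 of 3 Schwann cell and 3 of 8 endothelial genes were called higher at 12 against 0 weeks. So were 2 of 8 fibroblast and 1 of 6 basal keratinocyte genes, beside 9.76% of all genes. In jak3i the counts in the same order were 0, 2, 7, 1 and 2, beside 7.41%. In PBS 0 of these genes were called, where 2.28% of all genes were called in either direction. The part of these cells in the Col8a2 rise was not tested.

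**Figure D2:**
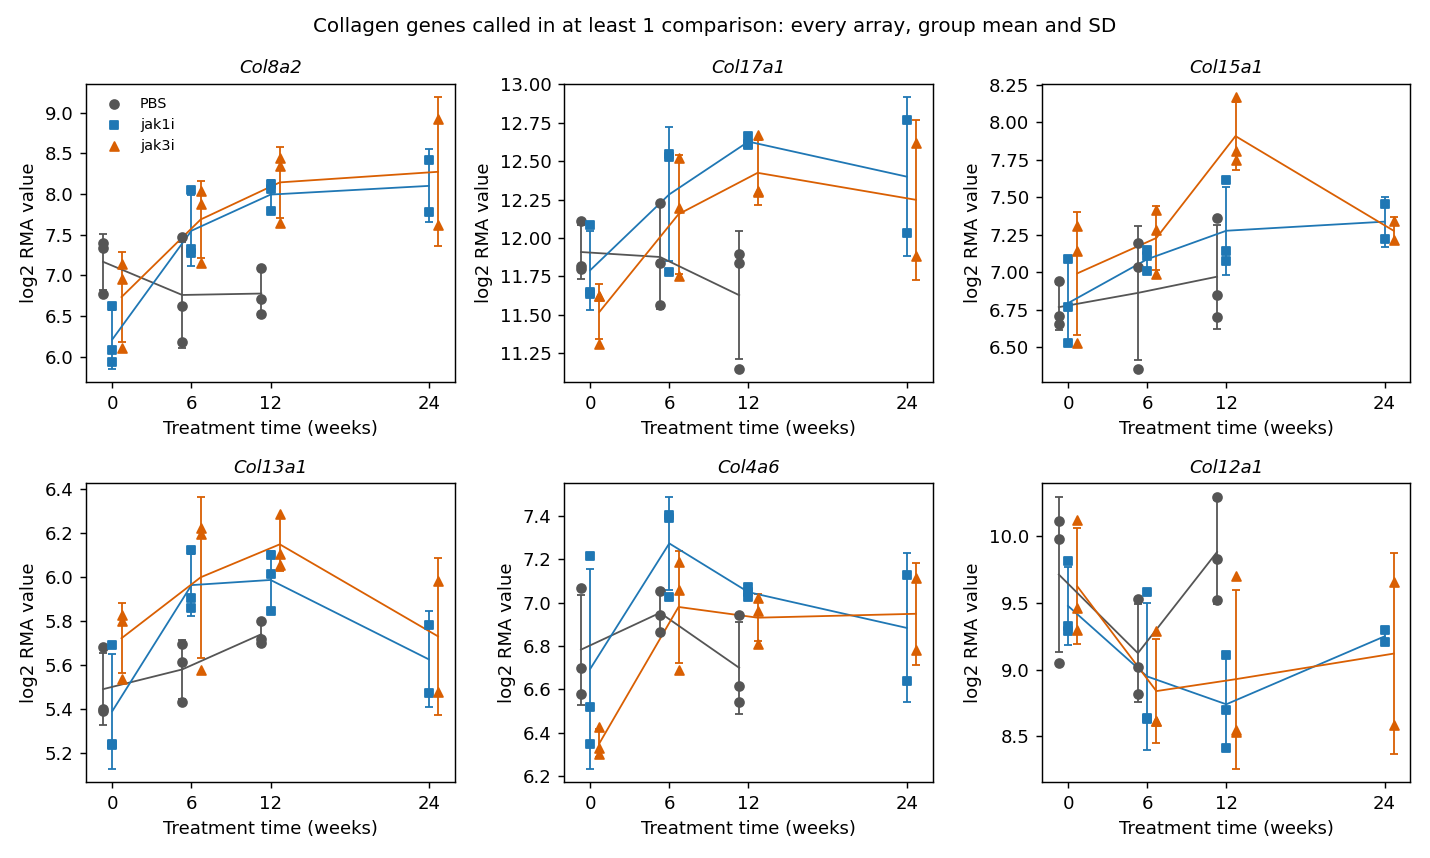
Log2 RMA values of 6 collagen genes with at least 1 called comparison against treatment time in weeks, with every array as a point (PBS circles, jak1i squares, jak3i triangles), and group means with SD as lines. At 12 weeks all 6 inhibitor arrays of Col8a2 and of Col17a1 lie above the 3 PBS arrays.

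Among the basement membrane genes, Col17a1 was higher at 12 weeks in both inhibitor arms. It encodes type XVII collagen, the hemidesmosome protein that holds basal keratinocytes to the basement membrane and is also known from hair follicle stem cells (chr19:47646341-47692042, 1 probe set). Its log2 values in PBS were 12.11, 11.80 and 11.82 at 0 weeks, 11.84, 12.23 and 11.56 at 6 and 11.90, 11.84 and 11.15 at 12 weeks. In jak1i they were 11.65, 12.09 and 11.64 at 0, 12.53, 11.78 and 12.54 at 6, 12.66, 12.61 and 12.61 at 12 and 12.03 and 12.76 at 24 weeks. In jak3i they were 11.31, 11.62 and 11.63 at 0, 11.75, 12.52 and 12.19 at 6, 12.67, 12.30 and 12.31 at 12 and 11.88 and 12.62 at 24 weeks. The 6 inhibitor arrays at 12 weeks lay above all PBS arrays, whatever the week, while the 6-week and 24-week arrays overlapped them.

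Against PBS at 12 weeks Col17a1 was higher by 0.999 (SE 0.26, adjusted p = 0.0146) in jak1i and 0.80 (SE 0.26, adjusted p = 0.0365) in jak3i. It rose from 0 to 12 weeks by 0.84 (SE 0.26, adjusted p = 0.0298) in jak1i and 0.90 (SE 0.26, adjusted p = 0.0344) in jak3i, beside −0.28 (SE 0.26, adjusted p = 0.645) in PBS. The differences between these changes, 1.12 (SE 0.36, adjusted p = 0.0614) for jak1i and 1.19 (SE 0.36, adjusted p = 0.0577) for jak3i, did not pass the test. The call against PBS was lost in jak1i without PBS at 12 weeks replicate 3 (0.76, adjusted p = 0.114) and in jak3i on leaving out, one at a time, jak3i at 12 weeks replicates 1, 2 and 3 and PBS at 12 weeks replicates 1 and 3 (0.56 to 0.93, adjusted p 0.0508 to 0.199). The rise was lost in jak1i on leaving out, one at a time, jak1i at 0 weeks replicates 1 and 3 and jak1i at 12 weeks replicates 1, 2 and 3 (0.76 to 0.85, adjusted p 0.0619 to 0.0996) and in jak3i on leaving out, one at a time, jak3i at 0 weeks replicates 1 and 2 and jak3i at 12 weeks replicates 1 and 2 (0.78 to 0.97, adjusted p 0.0849 to 0.129). Centring the arrays gave 0.66 (adjusted p = 0.0673) in jak3i against PBS and 0.74 (adjusted p = 0.0528) in jak3i at 12 against 0 weeks.

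The hair shaft mean moved the opposite way to Col17a1. At 12 weeks it was 1.04 to 2.78 in PBS, −3.01 to −1.16 in jak1i and −3.94 to −1.27 in jak3i. With the hair shaft mean as a covariate its differences from PBS at 12 weeks were 0.47 (adjusted p = 0.175) in jak1i and 0.18 (adjusted p = 0.675) in jak3i, and its rises over time were 0.32 (adjusted p = 0.318) and 0.25 (adjusted p = 0.735). The mean of 6 basal keratinocyte genes was −0.28 to 0.04 in PBS at 12 weeks, 0.23 to 0.33 in jak1i and 0.10 to 0.26 in jak3i, relative to the mean of all arrays, with list medians of 0.28 and 0.07 for the differences from PBS. The 1 gene of these 6 that was called, Krt15, a keratin of basal and bulge keratinocytes, was higher in both inhibitors, by 1.78 (SE 0.37, adjusted p = 0.00472) and 1.44 (SE 0.37, adjusted p = 0.0134). The part of these cells in the Col17a1 difference was not tested.

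Col15a1, a chain of the basement membrane zone around vessels and muscle that also carries heparan and chondroitin sulfate, was higher in jak3i at 12 weeks (chr4:47207655-47313167, 1 probe set). Its values in jak3i were 7.14, 6.53 and 7.31 at 0, 7.28, 7.41 and 6.99 at 6, 7.81, 7.75 and 8.17 at 12 and 7.21 and 7.34 at 24 weeks. In PBS they were 6.70, 6.65 and 6.94 at 0, 7.20, 6.35 and 7.03 at 6 and 6.85, 7.36 and 6.70 at 12 weeks, and in jak1i 6.53, 7.09 and 6.77, then 7.01, 7.10 and 7.15, then 7.14, 7.07 and 7.61, and 7.45 and 7.22 at 24 weeks. The 3 jak3i arrays at 12 weeks were the highest of all 31. The difference from PBS was 0.94 (SE 0.22, adjusted p = 0.00917) and the rise from 0 weeks 0.92 (SE 0.22, adjusted p = 0.0248), while the value at 24 against 0 weeks was 0.28 (SE 0.25, adjusted p = 0.569). The first call was lost without PBS at 12 weeks replicate 3 (0.80, adjusted p = 0.0557) and the second on leaving out, one at a time, jak3i at 0 weeks replicate 2 and jak3i at 12 weeks replicates 1 and 2 (0.68 to 0.996, adjusted p 0.0648 to 0.138). In jak1i the difference from PBS was 0.31 (SE 0.22, adjusted p = 0.378).

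All 8 endothelial marker genes were higher in jak3i than in PBS at 12 weeks, and their mean was 0.77 to 1.33 in jak3i, 0.11 to 0.71 in jak1i and −0.49 to 0.10 in PBS, so that it moved with Col15a1. The largest of the named ones was Vwf, von Willebrand factor, at 1.94 (SE 0.39, adjusted p = 0.00408). With the muscle mean as a covariate the Col15a1 difference from PBS was −0.10 (adjusted p = 1), and with PBS at 6 weeks as the control it was 1.05 (adjusted p = 0.0241). Its value with the hair shaft mean as a covariate was 0.94 (adjusted p = 0.109). The part of endothelial cells in it was not tested.

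The 6 chains of type IV collagen are encoded in 3 head-to-head pairs and assemble into 3 kinds of network. Of the 6 chains, Col4a6 alone was called, in 2 comparisons over time within an inhibitor arm. Against PBS, 0 of the 6 were called at 6 weeks in jak1i or jak3i (1.36% and 1.94% of all genes were). At 12 weeks it was likewise 0 in each (13.4% and 17.3%). Col4a6 (chrX:141165403-141474095) pairs with the Col4a5 chain in some epithelial basement membranes, and its values were 6.30, 6.42 and 6.33 in jak3i at 0 weeks and 6.96, 7.02 and 6.81 at 12 weeks, without overlap. The rise was 0.58 (SE 0.19, adjusted p = 0.049), and it was lost without any one of the 6 arrays (0.54 to 0.64, adjusted p 0.0573 to 0.143). In jak1i the values were 6.52, 7.22 and 6.35 at 0 weeks and 7.39, 7.03 and 7.41 at 6 weeks, which overlap, and the rise of 0.58 (SE 0.19, adjusted p = 0.0439) was lost on leaving out, one at a time, jak1i at 0 weeks replicates 1 and 3 and jak1i at 6 weeks replicates 1 and 3 (0.41 to 0.52, adjusted p 0.149 to 0.199). Centred on the array medians, the 2 values were 0.42 (adjusted p = 0.108) and 0.55 (adjusted p = 0.0636), and with the hair shaft mean as a covariate 0.18 (adjusted p = 0.782) and 0.42 (adjusted p = 0.0618).

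Col4a1, which with Col4a2 forms the network found in nearly all basement membranes, had values of 10.37, 10.81 and 11.20 in PBS at 12 weeks, 10.65, 10.65 and 11.29 in jak1i and 10.96, 11.08 and 11.57 in jak3i. These groups overlapped. The differences from PBS were 0.07 (SE 0.34, adjusted p = 0.917) and 0.41 (SE 0.34, adjusted p = 0.417), with 95% intervals of −0.63 to 0.77 and −0.29 to 1.11. For Col4a2 they were −0.18 (SE 0.27, adjusted p = 0.707) and 0.17 (SE 0.27, adjusted p = 0.695). For Col4a4, a chain of the kidney and inner ear membrane network that is also measured here in skin, the jak3i difference was 1.04 (SE 0.37, adjusted p = 0.0566), with arrays of 5.81, 6.68 and 5.94 in PBS and 7.58, 7.03 and 6.93 in jak3i, without overlap. Its partner Col4a3 was dim, at 0.21, and Col4a5 was at 0.27 (SE 0.23, adjusted p = 0.471) in jak1i and 0.05 (SE 0.23, adjusted p = 0.892) in jak3i.

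Col7a1, the anchoring fibril collagen, differed from PBS at 12 weeks by 0.07 (SE 0.29, adjusted p = 0.902) in jak1i and −0.08 (SE 0.29, adjusted p = 0.865) in jak3i, with intervals of −0.54 to 0.68 and −0.69 to 0.53. Col18a1, whose tail yields endostatin, had the lowest difference of the class, −0.72 (SE 0.30, adjusted p = 0.11) in jak1i, where its arrays of 8.66, 8.97 and 9.03 all lay below the PBS arrays of 9.74, 9.28 and 9.80. Its value at 12 against 0 weeks in jak1i was −0.82 (SE 0.30, adjusted p = 0.0649). Neither passed the test in the model of all arrays, and both did with only the compared arrays (adjusted p = 0.0476 and 0.0381).

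None of the 11 fibrillar genes was called against PBS at 6 or 12 weeks in either inhibitor, with 0 and 1 at an unadjusted p under 0.05 at 6 weeks (jak1i, then jak3i) and 1 and 3 at 12 weeks, where 29.9% and 33.5% of all genes were. With dim genes left out Col27a1 was called in both at 12 weeks (adjusted p = 0.0457 and 0.0493), and without PBS at 12 weeks replicate 2 likewise (0.63 and 0.60, adjusted p = 0.0292 and 0.0319), together with Col24a1 in jak3i (0.46, adjusted p = 0.0418). Without jak1i at 12 weeks replicate 2 Col27a1 was called in jak1i (0.64, adjusted p = 0.0462), without PBS at 6 weeks replicate 1 Col11a2 was called in jak3i at 6 weeks (−0.52, adjusted p = 0.0254), and with only the compared arrays Col11a1 was called in jak3i at 12 weeks (adjusted p = 0.0402). Col1a1, which encodes the main chain of type I collagen (chr11:94936224-94953042), had log2 values of 10.41, 9.96 and 10.28 at 0 weeks, 11.19, 8.83 and 10.60 at 6 and 9.89, 10.75 and 10.38 at 12 weeks in PBS. In jak1i they were 9.75, 10.87 and 10.41 at 0, 9.65, 9.32 and 9.17 at 6, 9.30, 9.56 and 10.74 at 12 and 11.20 and 11.05 at 24 weeks. In jak3i they were 10.69, 9.81 and 11.40 at 0, 10.53, 9.62 and 8.59 at 6, 10.87, 10.34 and 11.79 at 12 and 10.94 and 9.76 at 24 weeks. The arrays of one group lay up to 2.36 apart, and at 6 weeks all jak1i arrays lay below the jak1i arrays at 0 weeks.

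At 12 weeks Col1a1 differed from PBS by −0.47 (SE 0.56, adjusted p = 0.616) in jak1i and by 0.66 (SE 0.56, adjusted p = 0.429) in jak3i, with 95% intervals of −1.62 to 0.68 and −0.49 to 1.81. From 0 to 6 weeks it was at −0.96 (SE 0.56, adjusted p = 0.278) in jak1i and −1.05 (SE 0.56, adjusted p = 0.27) in jak3i. A difference of −1 lay inside the jak1i interval and one of 1, a fold of 2, inside the jak3i interval, so that neither was detectable against the spread between arrays.

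Col1a2, the second chain of type I collagen, and Col3a1, which forms type III collagen fibres with type I in the dermis, scattered less within groups (pooled SD 0.49 and 0.42). Col3a1 (chr1:45311538-45349706) had arrays of 13.18, 13.82 and 13.55 in PBS at 12 weeks, 13.36, 13.25 and 13.63 in jak1i and 13.62, 13.69 and 14.08 in jak3i, and these overlapped. Its differences from PBS were −0.10 (SE 0.32, adjusted p = 0.873) and 0.28 (SE 0.32, adjusted p = 0.585), with intervals of −0.78 to 0.57 and −0.40 to 0.95. For Col1a2 they were 0.07 (SE 0.38, adjusted p = 0.926) and 0.45 (SE 0.38, adjusted p = 0.428), with arrays of 12.97, 13.71 and 13.37 in PBS, 13.19, 13.27 and 13.81 in jak1i and 13.68, 13.70 and 14.02 in jak3i. In PBS at 6 weeks, replicate 2 held the lowest value of all 31 arrays for both genes, 11.69 for Col1a2 and 12.06 for Col3a1.

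**Figure D3:**
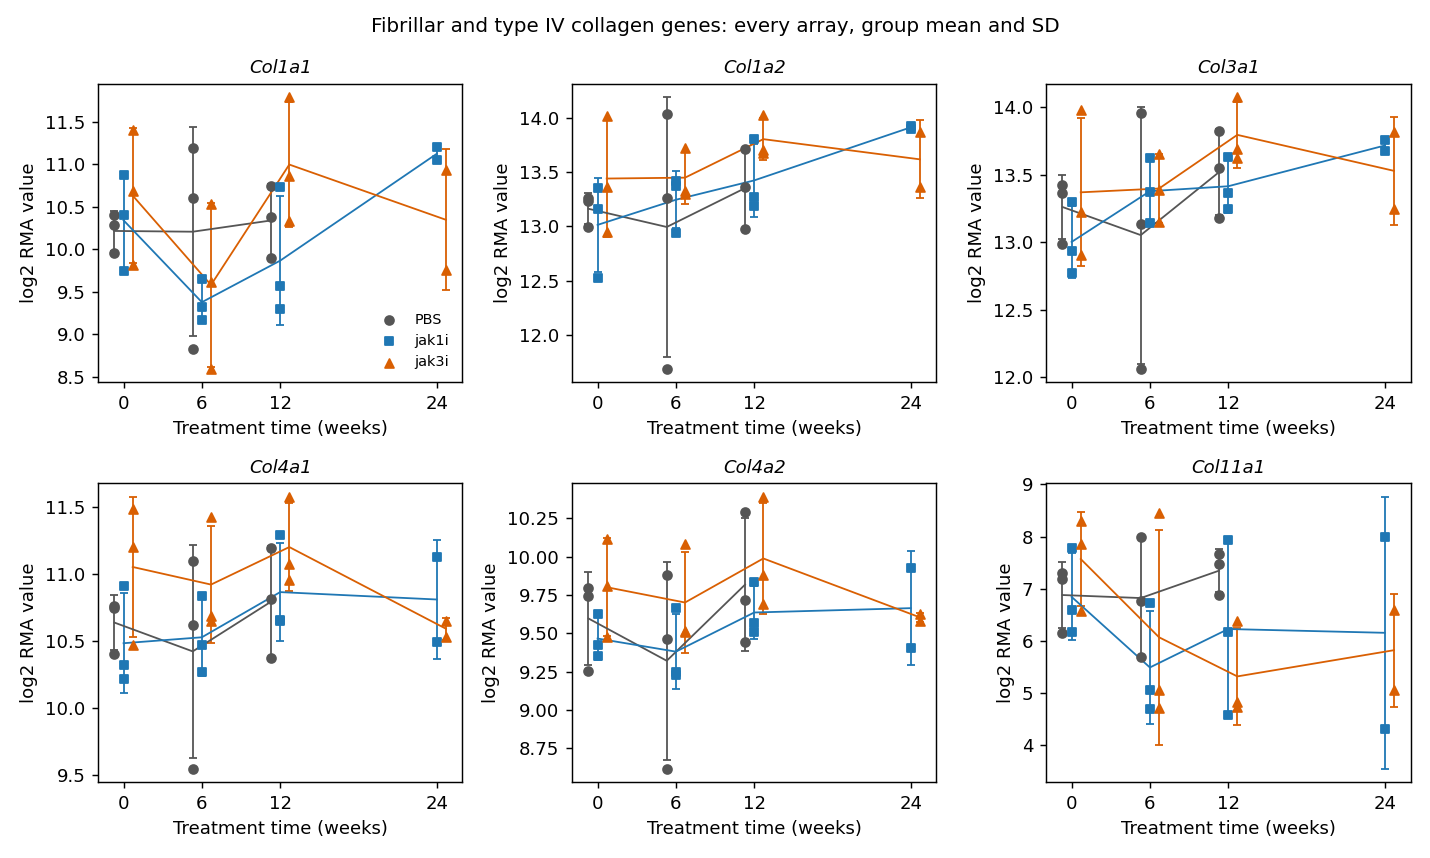
Log2 RMA values of 4 fibrillar and 2 type IV collagen genes against treatment time in weeks, with every array as a point (PBS circles, jak1i squares, jak3i triangles) and group means with SD as lines. The arms overlap for Col1a1, Col1a2, Col3a1, Col4a1 and Col4a2, PBS at 6 weeks has a low array for Col1a2 and Col3a1, and Col11a1 spreads over 4.13 log2 units.

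Col27a1, a fibrillar collagen known from cartilage, was the 1 fibrillar gene called in any comparison. Its jak1i values were 7.33, 7.54 and 7.50 at 0 weeks and 7.84, 7.75 and 8.44 at 12 weeks, without overlap, a rise of 0.55 (SE 0.17, adjusted p = 0.0357). The call was lost on leaving out, one at a time, jak1i at 0 weeks replicates 1, 2 and 3 and jak1i at 12 weeks replicates 1 and 3 (0.34 to 0.64, adjusted p 0.0544 to 0.197), centred arrays gave 0.49 (adjusted p = 0.0523), and the hair shaft covariate gave 0.45 (adjusted p = 0.19). Its second probe set gave 0.37. Against PBS at 12 weeks it was at 0.51 (SE 0.17, adjusted p = 0.0571) in jak1i and 0.48 (SE 0.17, adjusted p = 0.0607) in jak3i.

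The widest scatter of the family was that of Col11a1, a minor fibrillar chain that helps set fibril width. Its jak3i values were 7.85, 6.57 and 8.29 at 0, 8.44, 5.06 and 4.71 at 6, 4.83, 4.74 and 6.38 at 12 and 6.59 and 5.05 at 24 weeks. In jak1i they were 6.59, 6.17 and 7.78 at 0, 4.70, 6.72 and 5.05 at 6, 4.58, 6.18 and 7.93 at 12 and 7.997 and 4.31 at 24 weeks, and in PBS 7.67, 7.48 and 6.89 at 12 weeks. The jak3i arrays at 12 weeks lay below those of PBS and of jak3i at 0 weeks. The differences, −2.03 (SE 0.99, adjusted p = 0.153) and −2.25 (SE 0.99, adjusted p = 0.123), were the lowest of the 42 genes in both comparisons but did not pass the test.

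The type V genes Col5a1 and Col5a3, which regulate the start and width of fibrils, were at 0.67 (SE 0.38, adjusted p = 0.217) and 0.67 (SE 0.28, adjusted p = 0.102) in jak3i against PBS at 12 weeks and at −0.18 (SE 0.38, adjusted p = 0.803) and 0.01 (SE 0.28, adjusted p = 0.985) in jak1i. Col5a2, another chain of the type, was at −0.72 (SE 0.41, adjusted p = 0.246) in jak1i and −0.24 (SE 0.41, adjusted p = 0.719) in jak3i. At 24 against 0 weeks in jak1i, 8 of 11 fibrillar genes did not overlap between the groups, beside 37.8% of all genes, with a median of 0.68, but with 2 arrays at 24 weeks 0 were called and 2 had an unadjusted p under 0.05, beside 20.4% of all genes. In jak3i at 24 weeks the median was 0.06 and 2 of 11 did not overlap, beside 33.6% of all genes.

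Among the other collagens, apart from Col8a2, Col13a1 was called in 2 comparisons. It is a membrane-spanning collagen of cell adhesions, with jak1i values of 5.69, 5.24 and 5.24 at 0 weeks, 5.86, 6.12 and 5.91 at 6 and 6.01, 5.85 and 6.10 at 12 weeks, and 5.47 and 5.78 at 24 weeks. All of these jak1i values lay below 6.177, the median of all values, and only 3 of the 31 arrays lay over it. The arrays at 6 and at 12 weeks lay above those at 0 weeks, and those at 24 weeks overlapped them. The rises were 0.57 (SE 0.16, adjusted p = 0.0259) and 0.60 (SE 0.16, adjusted p = 0.017). The first was lost on leaving out, one at a time, jak1i at 0 weeks replicates 2 and 3 and jak1i at 6 weeks replicates 1, 2 and 3 (0.49 to 0.63, adjusted p 0.0594 to 0.0946) and the second on leaving out, one at a time, jak1i at 0 weeks replicates 2 and 3 and jak1i at 12 weeks replicates 1 and 3 (0.52 to 0.58, adjusted p 0.0612 to 0.0657). The PBS arrays, 5.68, 5.40 and 5.39 at 0 and 5.70, 5.72 and 5.80 at 12 weeks, did not overlap either, and the differences of jak1i from PBS at 6 and 12 weeks were 0.38 (SE 0.16, adjusted p = 0.227) and 0.25 (SE 0.16, adjusted p = 0.327).

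Col12a1, a FACIT that sits on type I fibrils, was lower in jak1i than in PBS at 12 weeks. Its arrays were 8.70, 8.41 and 9.11 in jak1i, 9.82, 9.52 and 10.29 in PBS and 8.53, 8.55 and 9.70 in jak3i, and jak1i did not overlap PBS. The difference was −1.14 (SE 0.36, adjusted p = 0.0415) in jak1i, and −0.95 (SE 0.36, adjusted p = 0.0712) in jak3i. Of its 4 probe sets 3 had the same sign (−1.14 to 0.00 over the 4), and with the mean of all probe sets both were called, at −0.58 (adjusted p = 0.0166) in jak1i and −0.47 (adjusted p = 0.0388) in jak3i. The call was lost on leaving out, one at a time, jak1i at 12 weeks replicates 1, 2 and 3 and PBS at 12 weeks replicates 1 and 3 (−1.32 to −0.93, adjusted p 0.0569 to 0.189), and with PBS at 6 weeks as the control the value was −0.38 (adjusted p = 0.624). Its value with the hair shaft mean as a covariate was −0.64 (adjusted p = 0.377).

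The other 2 falls were in dim genes. Col6a4, a chain of the beaded-filament collagen VI family, had arrays of 4.97, 5.06 and 4.89 in jak1i and 5.58, 5.24 and 5.34 in PBS at 12 weeks, a difference of −0.41 (SE 0.10, adjusted p = 0.0138). Its second probe set was at −0.13, and the mean of both gave −0.27 (adjusted p = 0.00863). It was lost on leaving out, one at a time, jak1i at 12 weeks replicate 3 and PBS at 12 weeks replicate 1 (−0.37 to −0.32, adjusted p 0.0624 to 0.0772). Col10a1, a network collagen known from growth plate cartilage, had arrays of 4.70, 4.75 and 4.65 in jak3i and 6.44, 4.89 and 5.30 in PBS, a difference of −0.84 (SE 0.27, adjusted p = 0.0355). It was lost on leaving out, one at a time, jak3i at 12 weeks replicates 1, 2 and 3 and PBS at 12 weeks replicates 1 and 3 (−0.96 to −0.39, adjusted p 0.0602 to 0.248). The value without PBS at 12 weeks replicate 1, whose 6.44 was the highest of all 31 arrays, was −0.39 (adjusted p = 0.248). The 2 values with the hair shaft mean as a covariate were −0.34 (adjusted p = 0.129) and −0.996 (adjusted p = 0.145). With PBS at 6 weeks as the control they were −0.21 (adjusted p = 0.302) and −0.11 (adjusted p = 0.838).

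The main type VI chains, Col6a1, Col6a2 and Col6a3, whose filaments link cells to the fibres around them, were at 0.42 (SE 0.35, adjusted p = 0.415), 0.27 (SE 0.40, adjusted p = 0.676) and 0.48 (SE 0.35, adjusted p = 0.353) in jak3i against PBS at 12 weeks, and at 0.04, −0.07 and 0.11 in jak1i. The partner of Col8a2, Col8a1, was at −0.35 (SE 0.49, adjusted p = 0.687) in jak1i and 1.02 (SE 0.49, adjusted p = 0.149) in jak3i, and its jak3i arrays of 7.82, 7.77 and 9.86 included the highest of all 31. Against PBS at 12 weeks the 21 other collagens ranged from −1.14 to 1.22 in jak1i and from −0.95 to 1.37 in jak3i. The fibrillar genes ranged from −1.12 to 0.51 and from −2.03 to 0.67, and the basement membrane genes from −0.72 to 0.999 and from −0.49 to 1.04.

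The compounds were compared with each other at 12 and 24 weeks and in their change from 0 to 12 weeks, with no dose known. In these 3 comparisons 0 of 42 members were called and 0% of all genes were, with 4, 0 and 0 members at an unadjusted p under 0.05, beside 5.97%, 0.627% and 4.72% of all genes. Col8a2 differed between jak1i and jak3i by −0.15 (SE 0.37, adjusted p = 0.998) at 12 weeks, with an interval of −0.91 to 0.61, and by −0.17 (SE 0.45, adjusted p = 1) at 24 weeks, with an interval of −1.10 to 0.76. Col17a1 differed by 0.20 (SE 0.26, adjusted p = 0.998) at 12 weeks (−0.33 to 0.73). These intervals leave room for a difference in either direction. Col15a1 was lower in all 3 jak1i arrays than in all 3 jak3i arrays at 12 weeks, at −0.63 (SE 0.22, adjusted p = 0.746) with an interval of −1.09 to −0.17, a difference that failed the correction over all genes. The arms at 0 weeks had 0 members called against PBS (0% of all genes), with 3 in jak1i and 4 in jak3i at an unadjusted p under 0.05, beside 5.04% and 7.57% of all genes.

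Within groups, Col1a1 varied with Col1a2 and Col3a1, Col4a1 with Col4a2 and Col6a1 with Col6a2, while other chain pairs did so less. Each array's deviation from the mean of its group was correlated between chains over the 31 arrays, which share RNA and array, so that r is a description with no p. Col1a1 and Col1a2 had a Pearson r of 0.863 (Spearman rho 0.884), Col1a1 and Col3a1 0.862 (0.868), Col4a1 and Col4a2 0.948 (0.921) and Col6a1 and Col6a2 0.983 (0.977). Without PBS at 6 weeks replicate 2 the 4 values of r were 0.825, 0.805, 0.925 and 0.978. Col4a3 and Col4a4 had 0.545 (0.529) and Col8a1 and Col8a2 0.322 (0.275), while Col4a5 and Col4a6 had 0.089 (0.089), Col9a1 and Col9a2 0.087 (0.102) and Col11a1 and Col11a2 −0.004 (0.061). One or both chains of the type IX, type XI and Col4a3 pairs are dim.

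**Figure D4:**
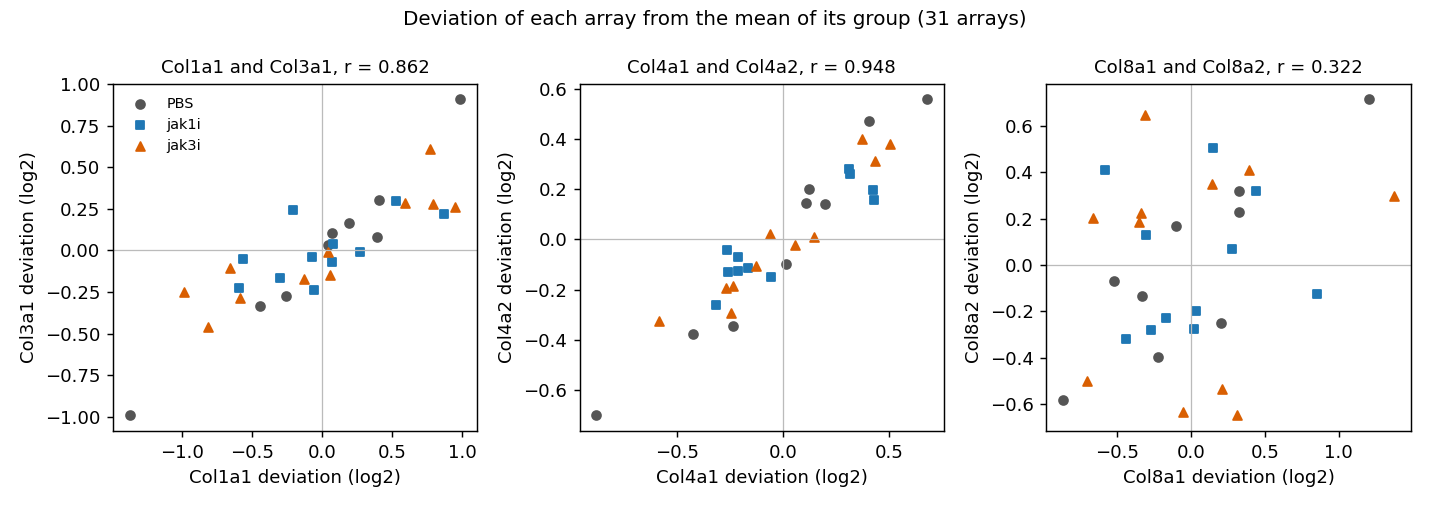
Deviation of each of the 31 arrays from its group mean in log2 units, for 3 pairs of collagen genes, with PBS as circles, jak1i as squares and jak3i as triangles. The points of Col1a1 with Col3a1 and of Col4a1 with Col4a2 lie along a line (r = 0.862 and 0.948), and those of Col8a1 with Col8a2 do not (r = 0.322).

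Over genes that were not dim, the 28 pairs of 8 fibrillar genes had a median r of 0.629, and 19 of them were over 0.5. The 36 pairs of 9 basement membrane genes had a median of −0.017 (−0.684 to 0.948), and the 78 pairs of 13 other collagens a median of 0.049. Col4a1, Col4a2 and Col15a1 varied with Col1a1 (r of 0.722, 0.688 and 0.794), whereas Col17a1, Col7a1 and Col4a6 had values of −0.287, −0.316 and −0.247 with it and varied with each other (Col17a1 with Col7a1 0.714, Col17a1 with Col4a6 0.669 and Col7a1 with Col4a6 0.697). Of the other 3, Col4a4, Col4a5 and Col18a1 had 0.429, −0.122 and 0.25 with Col1a1 and 0.237, −0.117 and −0.516 with Col17a1. Col8a2 had its highest r among members with Col15a1 (0.509) and Col4a4 (0.493).

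Several members are neighbours on a chromosome (GRCm38.p6). Col4a1 and Col4a2 overlap by 85 bases on chromosome 8 and Col4a3 and Col4a4 by 114 bases on chromosome 1, while Col4a5 and Col4a6 lie 1274 bases apart on chromosome X with an r of 0.089. Col3a1 and Col5a2 lie 24624 bases apart on chromosome 1, and their r was 0.872. Col6a1 and Col6a2 lie 85161 bases apart on chromosome 10. Col6a4 and Col6a5 on chromosome 9 (27854 bases, r = 0.156) and Col9a1 and Col19a1 on chromosome 1 (4944 bases, r = 0.207) are neighbours as well. Neighbouring genes thus ranged from 0.089 to 0.983 in r.

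Genes that make, bind or break collagen were listed by role. Of 18 genes of synthesis and folding, 0 were higher and 1 lower in jak1i against PBS at 12 weeks and 4 higher and 0 lower in jak3i, with 3 and 5 higher and 0 lower at 12 against 0 weeks. In PBS 1 rose and 0 fell over that time (2.28% of all genes called). The medians of this change were 0.30 in PBS, 0.20 in jak1i and 0.44 in jak3i. Against the change in PBS, 0 were higher and 1 lower in each inhibitor (6.85% and 4.55% of all genes called). Of all genes 13.4% and 17.3% were called against PBS at 12 weeks, and 16.3% and 10.3% at 12 against 0 weeks, in jak1i and jak3i, and the counts of every list below stand beside these shares. P4hb, a subunit of the prolyl hydroxylase that stabilises the helix, was lower in jak1i, at −0.36 (SE 0.09, adjusted p = 0.0145) at 12 weeks and −0.49 (SE 0.09, adjusted p = 0.0103) at 6 weeks, and in jak3i at 6 weeks, at −0.41 (SE 0.09, adjusted p = 0.0212). Crtap, which works in prolyl 3-hydroxylation, was higher in jak3i against PBS at 12 weeks by 0.39 (SE 0.13, adjusted p = 0.0457), and Colgalt1, which adds galactose to collagen, rose in jak3i from 0 to 12 weeks by 0.53 (SE 0.13, adjusted p = 0.025). Sec23a, of the vesicle coat that exports procollagen, was higher by 0.38 (SE 0.12, adjusted p = 0.0379) in jak3i and rose in jak1i by 0.44 (SE 0.12, adjusted p = 0.0182). Serpinh1, the collagen chaperone, rose in jak1i from 0 to 12 weeks by 0.65 (SE 0.21, adjusted p = 0.0387).

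Of 11 genes of processing and crosslinking, 0 were higher and 1 lower in jak1i and 1 higher and 0 lower in jak3i against PBS at 12 weeks, and 1 and 0 rose from 0 to 12 weeks. Loxl3, a lysyl oxidase relative, was lower in jak1i, at −1.20 (SE 0.25, adjusted p = 0.00533). Lox, the main crosslinking enzyme, was at −1.28 (SE 0.46, adjusted p = 0.066) in jak1i and was not called. Pcolce2 rose in jak1i from 0 weeks by 3.03 (SE 0.69, adjusted p = 0.00686), and Pcolce was higher in jak3i than in PBS by 1.45 (SE 0.47, adjusted p = 0.0394). Both enhance the cleavage of procollagen ends.

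Of 16 fibril-binding genes 7 rose and 0 fell in jak1i from 0 to 12 weeks, with a median of 1.05 on the log2 scale, after 6 and a median of 1.07 at 6 weeks, and 1 was higher at 24 weeks with a median of 1.32. At 12 weeks this stood beside 2 of 16 in jak3i and a median of 0.65. Against PBS at 12 weeks 0 of 16 were called in jak1i and 1 in jak3i. Tnxb, a tenascin of the dermis, rose from 0 to 12 weeks by 2.06 (SE 0.46, adjusted p = 0.00617) in jak1i and 1.46 (SE 0.46, adjusted p = 0.0467) in jak3i, and Fmod, a small proteoglycan on fibrils, by 2.15 (SE 0.51, adjusted p = 0.00818) and 1.78 (SE 0.51, adjusted p = 0.0345). Dcn and Aspn, related proteoglycans, rose in jak1i by 1.16 (SE 0.35, adjusted p = 0.0266) and 1.67 (SE 0.50, adjusted p = 0.0281). Sparc, which binds collagen outside the cell, was at −0.11 (SE 0.28, adjusted p = 0.849) in jak1i and 0.31 (SE 0.28, adjusted p = 0.477) in jak3i against PBS at 12 weeks. The fibroblast gene mean moved with this list, from −0.77 to −0.48 in jak1i at 0 weeks to −0.04 to 0.29 at 12 weeks, and 2 of 8 fibroblast genes, Dcn and Dpt, rose there. Both of these, and Lum, stand in the fibril-binding list as well, so that the means share 3 genes. Markers of other cell types also rose in that comparison, 5 of 6 fat cell genes (median 2.48), 2 of 3 Schwann cell genes (1.33) and 3 of 8 endothelial genes (0.96). The part of these cells in it was not tested.

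Of 12 genes of collagen breakdown, 1 was higher and 3 lower in jak1i and 3 higher and 1 lower in jak3i against PBS at 12 weeks, beside 13.4% and 17.3% of all genes called. Mmp13, an interstitial collagenase, was lower in jak1i, at −5.02 (SE 1.05, adjusted p = 0.00504), and stood at −2.82 (SE 1.05, adjusted p = 0.0648) in jak3i. At 6 weeks it was lower in both, at −4.31 (SE 1.05, adjusted p = 0.0414) and −4.55 (SE 1.05, adjusted p = 0.0269). Mmp8, the neutrophil collagenase, was lower in both at 12 weeks, at −0.76 (SE 0.16, adjusted p = 0.00521) and −0.46 (SE 0.16, adjusted p = 0.0474). Of their inhibitors, Timp1 was lower in jak1i, at −3.27 (SE 0.90, adjusted p = 0.0206), and Timp2 higher in jak3i by 1.10 (SE 0.32, adjusted p = 0.0252).

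Of 9 collagen receptors, 0 were higher and 1 lower in each inhibitor against PBS at 12 weeks. That 1 was Lair1, an inhibitory receptor of leukocytes for collagen, at −2.48 (SE 0.50, adjusted p = 0.00388) in jak1i and −1.94 (SE 0.50, adjusted p = 0.0132) in jak3i. Itga2, an integrin subunit that binds collagen, fell in jak1i from 0 to 12 weeks, at −0.70 (SE 0.16, adjusted p = 0.007). Of 12 genes of TGF beta and profibrotic signals, 1 was higher in each inhibitor and 0 lower against PBS at 12 weeks: Tgfb2, by 1.08 (SE 0.24, adjusted p = 0.0072) and 0.86 (SE 0.24, adjusted p = 0.0209). From 0 to 12 weeks 2 rose in each arm, Pdgfc (1.23 in jak1i, 1.26 in jak3i) with Ccn2 (1.33 (SE 0.40, adjusted p = 0.0287)) in jak1i and with Pdgfb (0.58 (SE 0.16, adjusted p = 0.0323)) in jak3i.

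Of 22 basement membrane partners, 4 were higher and 0 lower in each inhibitor against PBS at 12 weeks, with medians of 0.31 and 0.40 beside −0.03 and −0.04 for all genes. The share called in all genes was 13.4% and 17.3%. In the change from 0 to 12 weeks against that of PBS, 1 and 0 of the 22 were called. Npnt, a matrix ligand of epidermal and follicle basement membranes, was higher by 1.80 (SE 0.40, adjusted p = 0.00722) in jak1i and 1.71 (SE 0.40, adjusted p = 0.00896) in jak3i. Plec, the hemidesmosome plakin, was higher by 0.56 (SE 0.19, adjusted p = 0.0489) and 0.78 (SE 0.19, adjusted p = 0.00917). Dst, which encodes another hemidesmosome plakin, was higher in jak1i by 1.20 (SE 0.33, adjusted p = 0.0223), with 0.94 (SE 0.33, adjusted p = 0.0552) in jak3i, and rose from 0 to 12 weeks in both, by 1.30 (SE 0.33, adjusted p = 0.0125) and 1.15 (SE 0.33, adjusted p = 0.037). Lamc1, a laminin chain, was higher in jak3i by 0.84 (SE 0.23, adjusted p = 0.0183), and Itgb4, the hemidesmosome integrin chain, rose in jak3i from 0 to 12 weeks by 0.82 (SE 0.20, adjusted p = 0.0259). Plec, Dst and Itgb4 encode proteins that join Col17a1 in hemidesmosomes. Earlier results of these data were known when the lists were drawn up, so that their directions are no independent evidence.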

How the data were processed

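The labels' protocols name a Qiagen miRNeasy kit for RNA and an Affymetrix kit for labelling. The deposited table holds log2 values from RMA, which the authors ran, per the submitters' processing notes, and no RMA version is named there. RMA sets the distributions of the arrays nearly equal (array medians over all probe sets 6.05 to 6.24), so that a change in most genes at once is not visible. Of 45101 probe sets, 34958 named 1 gene symbol, 932 named several and 9211 none, and 34945, without control probe sets, gave 18193 genes.

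Comparisons are contrasts of 11 group means fitted to 31 arrays with limma 3.58.1 in R 4.3.3 (20 residual and 2.5 prior degrees of freedom), with Benjamini-Hochberg adjustment over all genes within a contrast. The number of arrays limits the precision. Named are Col1a1, Col3a1, Col4a1, Col17a1, every called member, the chain pairs and, per list, up to 4 called genes of smallest adjusted p, with Serpinh1, Lox, Sparc, Mmp13 and Itgb4 always. Other members are given by range, with some named after their values were seen. The members and lists were chosen with earlier results of these data known. Alternatives were centred arrays, dim genes left out, the mean of all probe sets, a trended variance, only the compared arrays, a replicate block, a random block, 2 covariates, and single arrays left out. Scan dates were not used here.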

Additional observations from a re-analysis of the deposited data

Results flagged for a closer look

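Col8a2 changed from 0 to 12 weeks by a different amount in the inhibitor arms than in PBS, and this difference was tested as an interaction in limma. Its change in jak1i exceeded that in PBS by 2.17 (SE 0.52, adjusted p = 0.0185) on the log2 scale. In jak3i it exceeded that in PBS by 1.80 (SE 0.52, adjusted p = 0.0491). Its own change was 1.78 in jak1i, 1.41 in jak3i and −0.39 in PBS, over 3 arrays at each time. Both calls were lost on leaving out some single arrays and with the hair shaft covariate. The jak3i call was also lost with the mean of all probe sets and with the replicate block. The arms did not start level, as the jak1i arrays at 0 weeks all lay below the PBS arrays. No group of these arrays holds 4 samples, so none could be searched for a single array far from the others.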

How the results depend on the processing

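Of 22 calls of single genes, 20 kept their call with the mean of all probe sets, 21 with a trended and robust variance, 16 with centred arrays, 12 with only the compared arrays, 6 with the muscle covariate and 3 with the hair shaft covariate. All 20 calls of genes that were not dim were kept when dim genes were left out. On leaving out single arrays 56 of 143 refits kept the call, and none turned the direction. With the muscle covariate 2 calls reversed, Col10a1 in jak3i against PBS at 12 weeks to 0.44 (adjusted p = 1) and Col15a1 in the same comparison to −0.10 (adjusted p = 1); the cause was not tested. With the 6 type IV chains alone in place of the basement membrane class, the median moved in all 20 comparisons by less than the SD of the differences of the 10 class genes. The 6 chains are among those 10 genes, so this is a loose measure. In some comparisons the sign changed, as in jak3i against PBS at 0 weeks, from −0.17 to 0.12. In the change of jak3i against PBS the median went from 0.56 to 0.34.

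The count of members called changed as follows, with no share of all genes at hand for these alternatives except centred arrays. In jak1i against PBS at 12 weeks (4) it was 0 with either covariate or with PBS at 6 weeks as the control, and 1 to 5 without single arrays. In jak3i against PBS at 12 weeks (4) it was 7 with centred arrays, 0 with either covariate, 2 with PBS at 6 weeks as the control, and 0 to 10 without single arrays. In jak3i against PBS at 6 weeks (0) it was 0 to 1 without single arrays. In jak1i at 6 against 0 weeks (3) it was 0 with only the compared arrays, 1 with the muscle covariate and 0 to 3 without single arrays. In jak1i at 12 weeks (4) it was 2 with either covariate and 1 to 4 without single arrays. In jak1i at 24 weeks (1) it was 0 with centred arrays, the mean of all probe sets, only the compared arrays or the hair shaft covariate, and 0 to 1 without single arrays. In jak3i at 6 weeks (0) it was 1 with dim genes left out or the mean of all probe sets, and 0 to 2 without single arrays. In jak3i at 12 weeks (4) it was 2 with only the compared arrays or the muscle covariate, 0 with the hair shaft covariate, and 0 to 3 without single arrays. In jak3i at 24 weeks (0) it was 0 to 1 without single arrays. The difference in change of jak1i from PBS (1) was 2 with dim genes left out, the mean of all probe sets or only the compared arrays, 0 with either covariate and 0 to 2 without single arrays. That of jak3i (1) was 2 with dim genes left out, 4 with only the compared arrays, 0 with either covariate and 0 to 1 without single arrays.

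Deviations of same-numbered arrays had a correlation over 0.1 in 20 of 66 pairs (−0.609 to 0.495, median −0.057). Differently numbered arrays were not compared and the groups are small, so this check cannot exclude that the numbers pair samples. With the replicate block the count for the change of jak3i against PBS was 0 (Col8a2 adjusted p = 0.0598), and with arm and number as a random block it was 0. The block also ended the calls of Col12a1 in jak1i against PBS (adjusted p = 0.0519) and Col4a6 in jak3i at 12 weeks (adjusted p = 0.0537). Where 24-week groups were left with 1 array, that array was assumed to vary like the other groups. Only 3 or 2 arrays per group limit every result, and probe sets near background, here the dim genes, may understate a fall.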
